A study of Mus musculus with 2 samples.

Results

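Fibroblasts of the dermis transcribe part of the complement system, and 6 of its genes are described here: C3, C4b, C1s1, C1ra, Serping1 and Cd55. They were chosen by symbol, as complement genes made by fibroblasts, from the 31053 genes of the deposited files, and all 6 were found. Their level, the share of cells that carried them, their co-variation and their ratio between untreated and inflamed skin were measured by single-cell RNA sequencing. Cells were sorted from the dermis of C57BL/6 mice, 8 weeks old, of the genotype PdgfraDreER-tdTomato, either untreated (UT) or after 7 days of imiquimod (IMQ), a Toll-like receptor agonist whose cream gives psoriasis-like skin inflammation. In these mice tamoxifen turns on tdTomato in cells in which Pdgfra drives the DreER recombinase, so the red cells are the lineage of cells that expressed Pdgfra and need not express it when sorted. Live cells negative for the leukocyte antigen CD45 and positive for tdTomato were taken in both groups. The labels do not say how many mice gave each library. There was 1 library in each group, so no value has a replicate, no test was run, and the treatment cannot be told apart from any other difference between these libraries. All intervals are exact 95% intervals of counts and cover counting error only.

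Complement is a cascade of plasma proteins that marks surfaces for removal and draws in leukocytes. C1r and C1s are the serine proteases of the first component; C1s cleaves C4 and C2 to form a convertase, and the convertase cleaves C3, the protein on which all routes meet. C1 inhibitor, the product of Serping1, blocks C1r and C1s, and the membrane protein CD55 speeds the decay of the convertases on the cell's own surface. Most plasma complement is made in the liver, and fibroblasts are among the cells that make components locally.

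The promoters of C3 and Cd55 are shown because these 2 genes had the most different ratios between the libraries. Each is the stretch from 250 bases before to 50 after a RefSeq transcription start in GRCm38.p6, on the minus strand, C3 at chr17:57228087-57228386 and Cd55 at chr1:130462695-130462994. Capitals mark matches on either strand to 4 motifs: the core of an interferon-stimulated response element (GAAA repeated after any 2 bases), TTCNNNGAA (the core bound by STAT factors), TTGCNNAA (a core bound by C/EBP factors) and the TATA box, spelled TATAAA.
C3: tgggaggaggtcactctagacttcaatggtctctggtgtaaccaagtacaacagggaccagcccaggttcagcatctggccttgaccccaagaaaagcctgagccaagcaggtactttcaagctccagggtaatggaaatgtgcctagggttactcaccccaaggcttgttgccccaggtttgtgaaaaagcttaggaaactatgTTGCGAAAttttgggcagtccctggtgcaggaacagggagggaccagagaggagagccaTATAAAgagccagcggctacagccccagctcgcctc
Cd55: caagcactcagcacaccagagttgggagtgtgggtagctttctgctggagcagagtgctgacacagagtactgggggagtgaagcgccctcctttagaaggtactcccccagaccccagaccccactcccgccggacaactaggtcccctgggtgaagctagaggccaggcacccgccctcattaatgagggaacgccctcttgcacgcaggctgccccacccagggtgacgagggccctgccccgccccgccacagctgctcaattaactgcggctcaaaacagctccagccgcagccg
The C3 window held 1 match to TTGCNNAA and 1 to TATAAA, and the Cd55 window held none of the 4 motifs. Relative to the start, the C3 matches began at -45 for TTGCNNAA and at 14 for TATAAA, which thus lay after the start. Among all 32851 promoter windows of the same length, TTGCNNAA occurred in 10.8%, TATAAA in 13.6%, TTCNNNGAA in 8.30% and the response element core in 3.44%. C1ra, for which 1 window was given, held 1 match to TTGCNNAA and 1 to TTCNNNGAA, and of the 2 windows of C1s1, 1 held a single match to TTGCNNAA. Windows were found for 4 of the 6 genes, and C4b and Serping1 are named only. A match is a string of letters and not a site.

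Positions are from the GENCODE M21 annotation of GRCm38. C3 (ENSMUSG00000024164) spans chr17:57203970-57228136 and C4b (ENSMUSG00000073418) chr17:34728380-34743882, both on the minus strand. The protease genes are neighbours on chromosome 6, C1ra (ENSMUSG00000055172) at chr6:124512405-124523443 on the plus strand and C1s1 (ENSMUSG00000038521) at chr6:124530345-124542359 on the minus strand, so that their 3′ ends face each other. Serping1 (ENSMUSG00000023224) spans chr2:84765387-84775444 and Cd55 (ENSMUSG00000026399) chr1:130439027-130462744, both on the minus strand. The assay reads the 3′ end, and near copies can share reads there. Of the 31-base words in the last 500 transcript bases of C4b, 57.7% also occur in C4a, a copy that is not among the genes of the files, so the UMIs counted as C4b are uncertain between these copies. The share was 27.7% for C1s1 with C1s2, 23.4% for C1ra with C1rb, and 0% for Cd55 with Cd55b. The filtered barcodes held 0 UMIs of C1rb, 2 of C1s2 and 1 of Cd55b in both libraries together. C1s1 and Cd55 overlap the antisense genes Gm16567 and Gm16083, but neither reaches the last 500 bases of the gene.

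Levels are counts of UMIs, the molecular tags that each stand for 1 captured transcript. In all, 1415 barcodes and 1524079 UMIs were deposited for UT, and 5047 barcodes and 2358303 UMIs for IMQ. Barcodes with 200 to 5000 genes and at most 5% mitochondrial UMIs numbered 1045 in UT, with 1104798 UMIs and a median of 741, and 571 in IMQ, with 460947 UMIs and a median of 659. These filtered barcodes are used unless all deposited barcodes are named, and 1 barcode sequence occurred in both libraries. At least 3 of 7 fibroblast markers (Col1a1, Col1a2, Col3a1, Dcn, Lum, Dpt and Pdgfra) were seen in 961 UT and 559 IMQ barcodes. Summed, these 7 markers stood at 81828 counts per 1000000 UMIs (CPM) in UT and 122602 CPM in IMQ. Markers of other cells were also unequal. The 8 keratinocyte markers stood at 1906 CPM in UT and 15.2 CPM in IMQ, where Krt5, Krt1, Krt15, Krtdap and Perp were at 0. The 11 myeloid markers stood at 1646 and 241 CPM, with Ptprc and Fcer1g at 0 in IMQ. The 4 adipocyte markers were near 0 in both libraries, with 0 UMIs in UT and 1 in IMQ. The RNA Gm42418 took 1.38% of UT and 14.6% of IMQ UMIs. The part of these differences in the ratios below was not tested.

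Serping1 was the most abundant of the 6 in both libraries, and C3, last in UT, was not last in IMQ. In UT the order was Serping1, C1ra, then C4b and C1s1 with equal counts, then Cd55 and last C3. In IMQ it was Serping1, C4b, C1ra, C3, C1s1 and Cd55, and the intervals of the 4 genes between Serping1 and Cd55 overlapped. A UMI stands for 1 captured 3′ end, so these levels need no correction for transcript length. All 6 together stood at 2640.3 CPM (2545 to 2738) in UT and 2128 CPM (1997 to 2266) in IMQ.

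**Figure D1:**
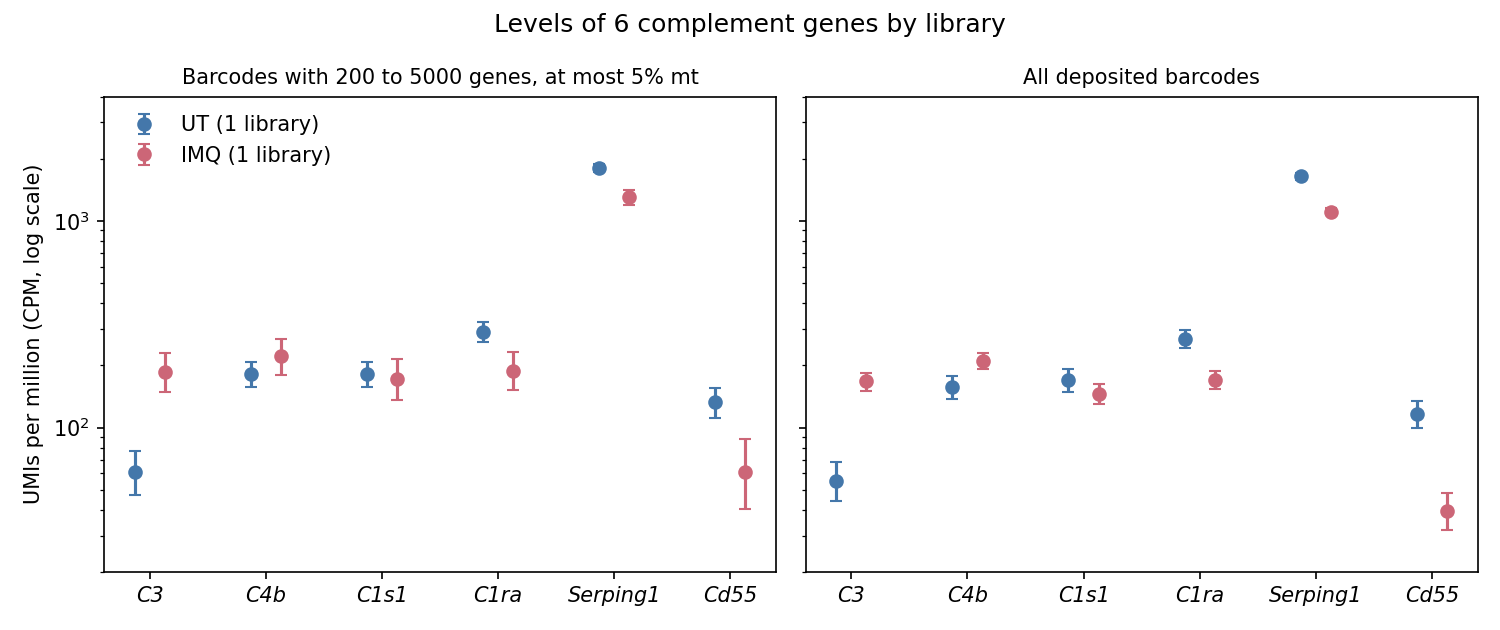
Level of each gene in CPM (log scale) in the UT and the IMQ library, over filtered barcodes (left) and all deposited barcodes (right). Points are 1 library each and bars are exact 95% Poisson intervals; C3 was at 60.6 CPM in UT and 187 CPM in IMQ, Cd55 at 132 and 60.7 CPM, both over filtered barcodes.

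C3, the central component, had 67 UMIs in UT, 60.6 CPM (47.0 to 77.0), and 86 in IMQ, 187 CPM (149 to 230). Its level was thus 3.08-fold higher in IMQ, a log2 ratio of 1.62 (1.14 to 2.10), and the 2 intervals of the levels did not overlap. The IMQ UMIs came from 61 barcodes, of which 50 had a single UMI and 1 had 13, and the UT UMIs came from 43 barcodes with at most 4 each. Without the top barcode of each library the log2 ratio was 1.48 (0.97 to 1.99). Over all deposited barcodes C3 had 84 and 394 UMIs, or 55.1 and 167 CPM, a log2 ratio of 1.60 (1.26 to 1.96).

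C4b, the other large component, stood at 181 CPM (157 to 208) in UT from 200 UMIs and at 221 CPM (180 to 269) in IMQ from 102. The intervals overlapped, and the log2 ratio of 0.29 (-0.07 to 0.64) was not distinguished from 0 in CPM, whereas TMM scaling, which centres on the typical gene, put it at 0.77 (0.41 to 1.12). Over all deposited barcodes, with 239 and 494 UMIs, it was 0.42 (0.19 to 0.65). C4b was therefore the only gene besides C3 whose ratio lay above 0 in that larger set.

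In CPM, C1ra was lower in IMQ and C1s1 was not distinguished from equal, and both calls depended on the scaling. C1s1 had 200 UMIs in UT, 181 CPM (157 to 208), and 79 in IMQ, 171 CPM (136 to 214). Its log2 ratio was -0.08 (-0.47 to 0.30), and 0.40 (0.01 to 0.79) with TMM scaling. C1ra had 320 UMIs in UT, 290 CPM (259 to 323), and 87 in IMQ, 189 CPM (151 to 233). The C1ra intervals did not overlap, and the log2 ratio was -0.62 (-0.98 to -0.27), or -0.65 (-0.86 to -0.45) over all deposited barcodes. With TMM scaling it was -0.13 (-0.49 to 0.21), and with at least 500 genes per barcode -0.52 (-1.31 to 0.18).

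Both inhibitors were lower in IMQ in CPM. Serping1 had 1984 UMIs in 636 UT barcodes, 1796 CPM (1718 to 1877), and 599 UMIs in 301 IMQ barcodes, 1299.5 CPM (1198 to 1408). Its log2 ratio was -0.47 (-0.60 to -0.33), and 0.016 (-0.12 to 0.15) with TMM scaling. Cd55 had 146 UMIs in 107 UT barcodes, 132 CPM (112 to 155), and 28 UMIs in 25 IMQ barcodes, 60.7 CPM (40.4 to 87.8). Its log2 ratio was -1.12 (-1.76 to -0.53), the lowest of the 6, and -1.56 (-1.94 to -1.19) over all deposited barcodes. With TMM scaling the Cd55 log2 ratio was -0.64 (-1.28 to -0.05), below 0 but not 2-fold lower.

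These ratios were read against all genes. With 1 CPM added to each library, 1 of the 6, C3, was at least 2-fold higher in IMQ, against 3.73% of the 8129 genes with at least 10 UMIs, and 1, Cd55, was at least 2-fold lower, against 32% of these genes. The median of the 6 was -0.27, and the median of all 8129 genes was -0.61. Relative to that median gene, C3 stood at 2.23, C4b at 0.90, C1s1 at 0.53, Serping1 at 0.14, C1ra at -0.01 and Cd55 at -0.52. The ratio of Cd55 was above that of 28.2% of these genes. This scale was not among the 13 alternatives named below and no interval was computed on it. Cd55 is therefore not shown to lie below the typical gene on it. On this scale 1 of the 6 was at least 2-fold higher, against 11.9% of all genes, and 0 were at least 2-fold lower, against 15.4%. Over all deposited barcodes, again only C3 was 2-fold higher in CPM, against 1.91% of 9917 genes, and only Cd55 2-fold lower, against 47.9%. The median gene of that set was at -0.96. Relative to it C3 stood at 2.56, C4b at 1.38, C1s1 at 0.74, Serping1 at 0.39, C1ra at 0.30 and Cd55 at -0.60. Median-of-ratios scaling, which also centres on the typical gene, gave values close to those of TMM for each of the 6. The calls for C4b, C1s1, C1ra and Serping1 thus depended on the scaling, whereas C3 was above 0 and Cd55 below 0 in each of the 13 alternatives of barcodes or scaling tried, and the Cd55 interval covered 0 only with at least 500 genes per barcode (-0.47, from -1.65 to 0.51).

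**Figure D2:**
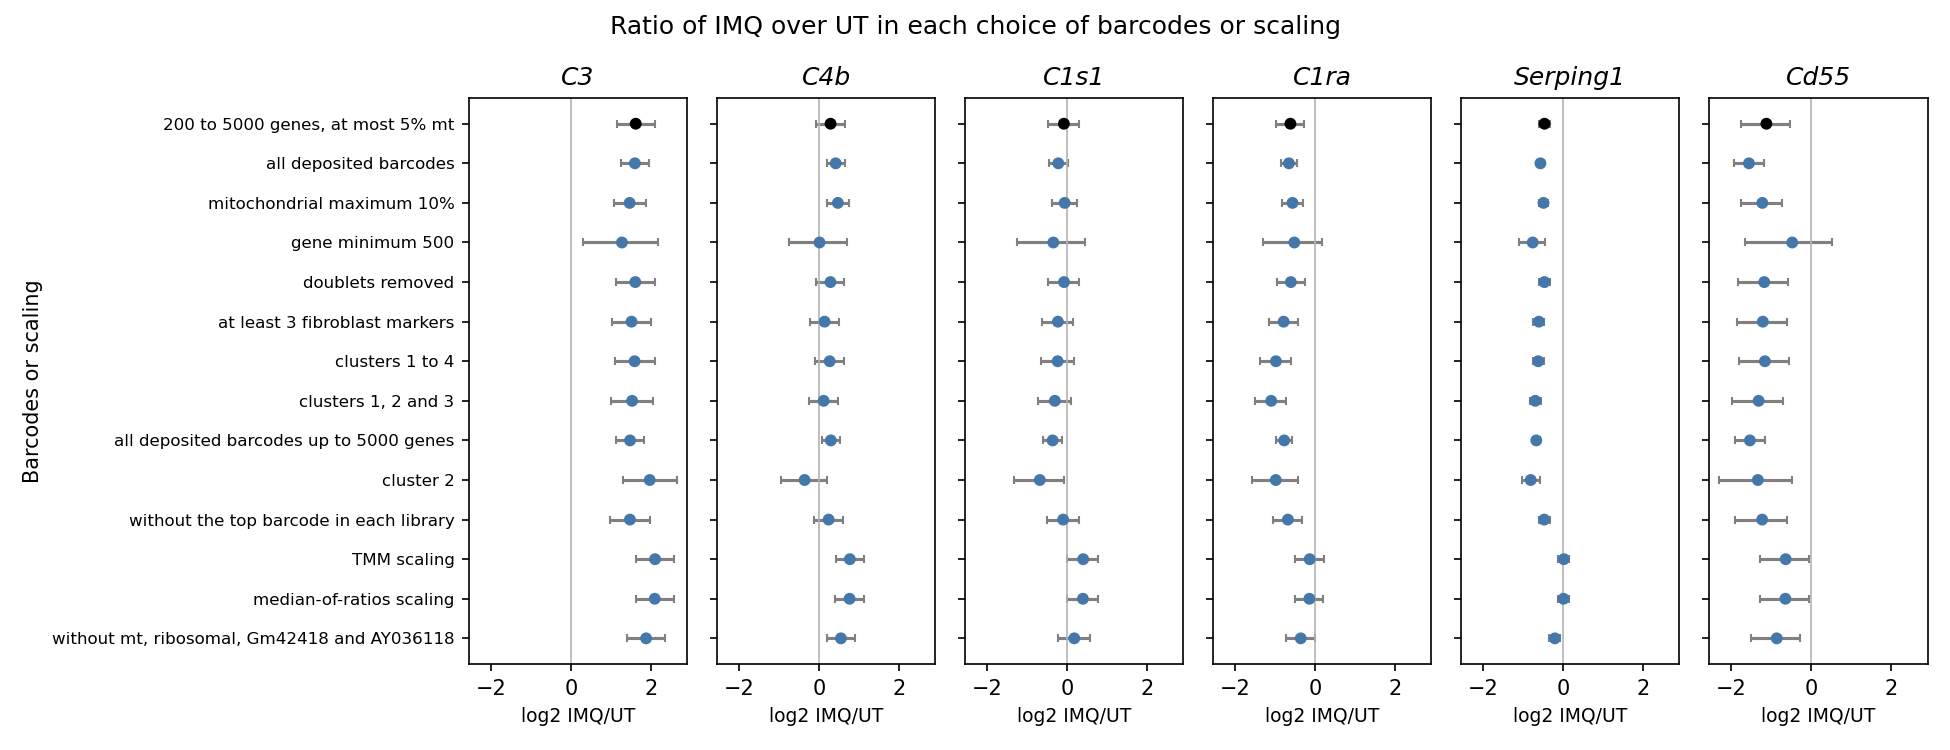
Log2 ratio of IMQ over UT for each gene (panels) under each choice of barcodes or scaling (rows), with the reported choice in black. Bars are exact 95% counting intervals; C3 lay between 1.28 and 2.10 and Cd55 between -1.56 and -0.47, and the interval of each gene but C3 covered 0 under at least 1 choice.

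Ratios between the genes do not depend on the scaling, because each is taken within a library. There were 0.209 C3 UMIs per C1ra UMI in UT and 0.989 in IMQ, 4.71-fold more (3.11 to 7.16). Against Serping1 the C3 ratio was 4.25-fold higher in IMQ (3.01 to 6.02), against Cd55 6.65-fold (3.89 to 11.6), against C1s1 3.24-fold (2.11 to 5.01) and against C4b 2.51-fold (1.66 to 3.82). C4b in turn was 1.87-fold higher against C1ra (1.32 to 2.66) and 2.65-fold higher against Cd55 (1.63 to 4.42). For C1ra and the inhibitor of its product, Serping1, the ratio was 0.161 in UT and 0.145 in IMQ, and the quotient of these, 0.90, had an interval from 0.69 to 1.17. C4b and C1s1 stood at 1 to 1 in UT and 1.29 to 1 in IMQ, with an interval of that quotient from 0.893 to 1.87. As a share of the UMIs of all 6 genes, C3 made up 2.30% (1.78% to 2.91%) in UT and 8.77% (7.07% to 10.7%) in IMQ. Over the same UMIs Serping1 made up 68.0% (66.3% to 69.7%) and 61.1% (57.9% to 64.1%), and Cd55 5.01% (4.24% to 5.86%) and 2.85% (1.90% to 4.10%).

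**Figure D3:**
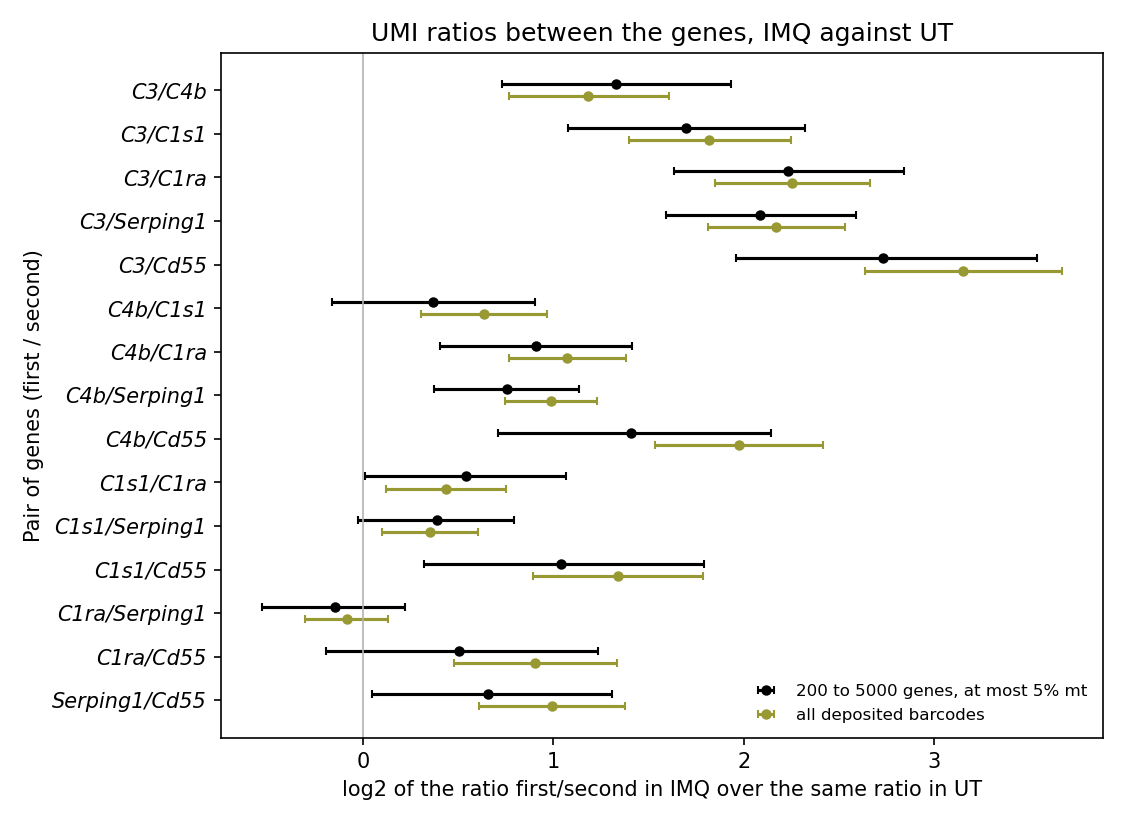
For each of the 15 pairs, the log2 of the UMI ratio of the first to the second gene in IMQ over that ratio in UT, with exact 95% conditional intervals, for filtered (black) and all deposited barcodes. All 5 pairs that begin with C3 lie above 0 in both sets, and C1ra/Serping1 covers 0 in both.

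Most UMIs of the IMQ library lay outside the filtered barcodes, both over all genes and for the 6. Over all genes, filtered barcodes held 460947 of 2358303 IMQ UMIs and 1104798 of 1524079 UT UMIs. IMQ barcodes with under 200 genes held 1155477 UMIs of all genes, and those with over 5% mitochondrial UMIs held 692942. Of the 4334 IMQ UMIs of the 6 genes, 22.6% were in filtered barcodes, 41.4% in 3621 barcodes with under 200 genes and 35.7% in 854 with over 5% mitochondrial UMIs, whereas 79.6% of the 3666 UT UMIs were in filtered barcodes. The IMQ barcodes under 200 genes held the 6 genes at 1552 CPM (1481 to 1625), below the 2128 CPM of the filtered ones. Their mix was close to that of the filtered ones: C3 made up 9.98% (8.63% to 11.5%) and Serping1 60.5% (58.2% to 62.7%). C3 stood at 155 CPM there, above its 60.6 CPM in filtered UT barcodes. RNA that is free in the suspension can give such counts, and its part was not tested.

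The share of barcodes with a UMI was compared after each barcode was thinned at random to 400 UMIs, which left out 73 UT and 33 IMQ barcodes as shallower. C3 was seen in 19 of 972 UT barcodes, 1.95% (1.18% to 3.04%), and in 38 of 538 IMQ barcodes, 7.06% (5.05% to 9.57%). Serping1 was seen in 46.8% (from 43.6% up to 50%) and 37.4% (33.3% to 41.6%). For the other 4 genes the intervals overlapped in these thinned filtered barcodes. C1ra was seen in 9.16% (7.42% to 11.1%) of UT and 5.76% (3.95% to 8.08%) of IMQ barcodes. For C4b the shares were 5.86% and 7.06%, for C1s1 5.45% and 5.20%, and for Cd55 3.40% and 2.23%. Without thinning, the shares ran from 4.11% for C3 to 60.9% for Serping1 in UT, and from 4.38% for Cd55 to 52.7% for Serping1 in IMQ. The unthinned intervals of C1ra, seen in 20.4% and 12.1%, and of Cd55, seen in 10.2% and 4.38%, did not overlap. Over all deposited barcodes, thinning left 1276 in UT and 2147 in IMQ, with 139 and 2900 left out. There C3 was seen in 2.04% (1.34% to 2.97%) of UT and 5.59% (4.66% to 6.65%) of IMQ barcodes. Serping1 was seen in 45.7% and 34.9%, C4b in 5.56% and 7.08%, and C1s1 in 5.96% and 5.03%. C1ra was seen in 9.64% (8.08% to 11.4%) and 6.75% (5.73% to 7.90%), and Cd55 in 3.13% (2.25% to 4.24%) and 1.30% (0.868% to 1.88%), so in this set the intervals of C3, Serping1, C1ra and Cd55 did not overlap.

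A background share was sought in barcodes that should lack these genes. Those with at least 3 of the class II genes Cd74, H2-Aa, H2-Ab1 and H2-Eb1, antigen-presenting cells that a CD45-negative sort should remove, numbered 7 in UT and 3 in IMQ, too few for a share. The class II-led cluster described below was larger. Its 25 UT barcodes, at a median of 411 UMIs, held 0 of 17359 UMIs from the 6 genes, with an exact upper bound of 213 CPM (3 counts would be 173 CPM). Its 10 IMQ barcodes, at a median of 562, held 22 of 7930, or 2774 CPM (1739 to 4200), and their fibroblast markers stood at 44641 CPM against 403 CPM in UT. So in UT the 6 genes were not detected in class II barcodes, while in IMQ these few barcodes held them at a level whose interval covers that of all filtered barcodes. An IMQ share is therefore not shown to lie above background, and it cannot be told whether those IMQ barcodes are mixed.

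Across barcodes the 6 genes varied together weakly. Over the 972 thinned UT barcodes the median Pearson r of the 15 pairs was 0.085, from -0.026 to 0.22, with 14 of 15 above 0. Over the 538 IMQ barcodes it was 0.049, from -0.066 to 0.14, with 10 of 15 above 0. Over all deposited barcodes, thinned alike, the median r was 0.053 in UT and 0.062 in IMQ, each with 14 of 15 above 0, so the order of the libraries was the opposite one. Summed over pairs, both genes were seen in the same barcode 223 times in UT, where the product of their shares gives 142, and 91 times in IMQ, where it gives 70.6. The highest r in UT was that of C1ra and Serping1, 0.22, which was 0.049 in IMQ. At this depth most barcodes hold at most 1 UMI of a gene, and barcodes of a library share depth and free RNA. These are therefore descriptions only. Pairs of other genes were not set beside them, so the values are not shown to be particular to these 6 genes. Among filtered barcodes before thinning, 352 of 1045 in UT and 201 of 571 in IMQ held none of the 6, and 3 and 1 held all of them.

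The genes most like each member were sought among 792 genes seen in at least 5% of thinned UT barcodes. Gsn, which encodes the actin-severing protein gelsolin, was among the top 3 for C3 (r = 0.17 in UT, 0.16 in IMQ), C4b (0.18 and 0.062), C1ra (0.20 and 0.079) and Serping1 (0.35 and 0.20). Serping1 was closest to Dcn, which encodes the matrix proteoglycan decorin (0.39 and 0.21), followed by Gsn and by the collagen gene Col1a2 (0.32 and 0.14). Tnxb, which encodes the matrix protein tenascin-X, was among the top 3 for C3 (0.14 and 0.10) and C1s1 (0.18 and 0.046). The C3 list was completed by C4b (0.13 and 0.083). The other genes of the C4b list were Aebp1 (0.20 and 0.096) and Serping1 (0.18 and 0.11). C1s1 was also close to Selenop (0.14 and 0.074) and Ccdc80 (0.14 and 0.030), and C1ra to Serping1 (0.22 and 0.049) and Dcn (0.19 and 0.10). Cd55 shared none of these. Its top genes were Lrp1, an endocytic receptor (0.18 and -0.054), Plpp3 (0.16 and -0.030) and Itgb5, an integrin subunit (0.14 and 0.074).

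The libraries were integrated and clustered with the 6 genes and the other complement genes left out of the variable genes. Of the 6 clusters, 1, 2 and 3 had fibroblast markers at 123642, 120835 and 111131 CPM and cluster 4 at 30168 CPM. Cluster 2 was led by Lbp, Prss23, Pi16 and Mfap5 and had the highest level of the 6 fascial fibroblast markers, 3106 CPM against 1311 to 1542 CPM in clusters 1, 3 and 4. Cluster 4 was led by Coch, Fmod and Igfbp4, cluster 5 by Malat1 and keratin genes, and cluster 6 by class II genes. The clusters are called by number.

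In UT all 6 genes had their highest value in cluster 2 among the 4 clusters with at least 50 UT barcodes. At resolution 0.8, 5 of them were again highest in the cluster led by Lbp, Prss23 and Pi16, but C3 stood at 104 CPM (63.6 to 161) in another cluster and at 91.5 CPM (60.8 to 132) in that one. Serping1 stood there at 2723 CPM (2547 to 2906), against 2014 CPM in cluster 1, 2068 CPM in cluster 3 and 953 CPM (804 to 1122) in cluster 4. Cd55 stood at 254 CPM (203 to 315) in cluster 2, 130 CPM in cluster 1 and 72.3 CPM in cluster 3, and in cluster 4 at 6.57 CPM (0.166 to 36.6) from 1 UMI. C4b and C1s1 both stood at 348 CPM (288 to 418) in cluster 2, and in cluster 4 at 13.1 CPM, from 2 UMIs, and 78.9 CPM. The order of clusters was the same at both ends for 5 genes, with cluster 2 first and cluster 4 last. C1ra stood at 475 CPM (404 to 556) in cluster 2, 325 CPM (237 to 435) in cluster 3, with overlapping intervals, and 125 CPM in cluster 4. C3 was an exception at the low end, at 96.9 CPM (66.3 to 137) in cluster 2 and lowest in cluster 3, at 36.2 CPM (11.7 to 84.4), and these intervals overlapped.

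Ratios within a cluster rest on the integration: without it the barcodes separated largely by library, with 562 UT and 22 IMQ barcodes in the largest cluster and 38 and 294 in another. In IMQ, cluster 4 held only 38 barcodes. Among clusters 1 to 3, C3 stood at 380 CPM (281 to 502) in cluster 2, while clusters 1 and 3 held it at 120 CPM (72.1 to 187) and 121 CPM (62.7 to 212). Within cluster 2 the log2 ratio was 1.97 (1.30 to 2.66), from 32 and 49 UMIs. It was 1.00 (-0.02 to 2.04) in cluster 1, 1.75 (0.14 to 3.60) in cluster 3 and 1.69 (-0.53 to 3.66) in cluster 4. C4b stood at 252, 271 and 243 CPM in clusters 1, 2 and 3, with overlapping intervals, where in UT it had stood at 179, 348 and 86.8 CPM. Its log2 ratio was -0.36 (-0.95 to 0.20) in cluster 2 and 1.48 (0.43 to 2.62) in cluster 3. In CPM, Serping1 was lower in IMQ in each of clusters 1 to 4, with log2 ratios of -0.68, -0.81, -0.38 and -1.69. C1ra was lower too, at -0.65, -0.98, -2.20 and -0.75, the interval of the last covering 0. Cd55 was at -0.91 (-2.03 to 0.10) in cluster 1, -1.34 (-2.30 to -0.48) in cluster 2 and -1.25 (-3.75 to 0.70) in cluster 3. None of these ratios was rescaled to the typical gene. In clusters 1 to 4 together the C1ra log2 ratio was -0.98 (-1.37 to -0.61). In cluster 5 the C1ra log2 ratio was 2.35 (0.90 to 3.83), opposite to clusters 1 to 4, from 9 and 10 UMIs. That of Serping1 was 0.58 (-0.12 to 1.24) there, from 80 and 26 UMIs.

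**Figure D4:**
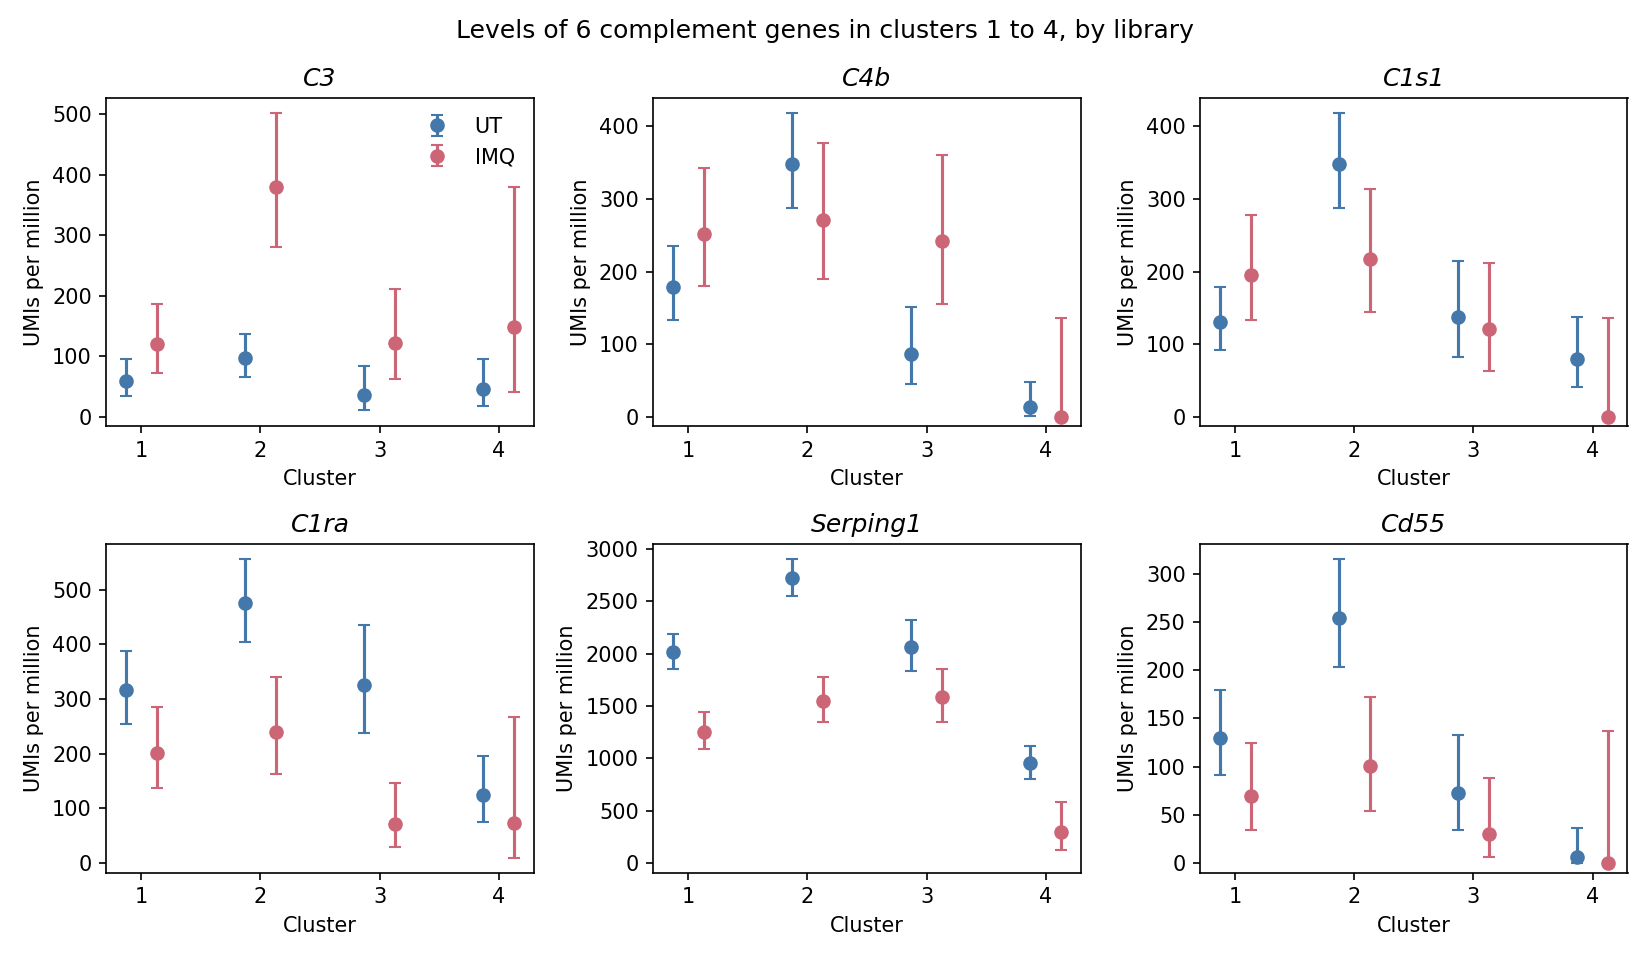
Level of each gene (panels) in CPM in clusters 1 to 4, by library, with exact 95% Poisson intervals. In UT each gene has its highest value in cluster 2, for C3 and C1ra with intervals that overlap those of other clusters; in IMQ C3 in cluster 2 stands at 380 CPM, and cluster 4 in IMQ rests on 38 barcodes.

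Barcodes with a C3 UMI also carried more of the fascial fibroblast markers Pi16, Dpp4, Sema3c, Anxa3, Ly6c1 and Cd248 than those without. In thinned UT barcodes these 6 markers stood at 4605 CPM (3208 to 6405) with C3 and 1954 CPM (1817 to 2100) without. In IMQ they stood at 2434 CPM (1714 to 3355) with C3 and 1360 CPM (1203 to 1532) without. In UT the log2 ratio of the list with over without the gene was 1.24 (0.70 to 1.73) for C3, 0.55 (0.16 to 0.91) for C4b, 0.49 (0.17 to 0.80) for C1ra and 0.41 (0.21 to 0.62) for Serping1, and the intervals for C1s1 and Cd55 covered 0. In IMQ it was 0.84 (0.30 to 1.34) for C3 and 0.70 (0.09 to 1.27) for C1ra, and the other 4 intervals covered 0. The 7 general fibroblast markers were also higher with each gene in UT, by 0.21 (0.10 to 0.32) for C3, 0.66 for C4b, 0.50 for C1s1, 0.65 for C1ra, 0.79 for Serping1 and 0.43 for Cd55, so that for C4b, C1ra and Serping1 the fascial value was the smaller. In IMQ the general markers were higher by 0.29 (0.22 to 0.35) with C3. The 6 reticular fibroblast markers, at 7 UMIs in barcodes with the gene and 21 in those without, were higher in IMQ with C3 by 2.13 (0.66 to 3.42) and with C1s1 by 2.60 (1.12 to 3.89), and every papillary interval that could be computed covered 0. The fascial list as a whole was lower in IMQ, at 1280 CPM against 2039 CPM in UT.

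The rest of the complement system was sparse in these cells. C4a, 1 of the 48 other components, regulators and receptors listed, was not among the genes of the files. Of the 47 found, 12 had at least 10 UMIs over both libraries. Of these, 3 were at least 2-fold higher in IMQ, 2 at least 2-fold lower and 7 in between, where 3.73% of all genes were 2-fold higher and 32% 2-fold lower. Their median log2 ratio was 0.17, against -0.61 for all genes. With a minimum of 1 UMI instead, 27 were measured and the 2 medians were close, at -0.76 and -0.72. Over all deposited barcodes 14 were measured, of which 2 were 2-fold higher and 4 lower, against 1.91% and 47.9% of all genes. C7, a component of the membrane attack complex, was 1 of the 3 higher genes, with 42 UMIs in UT, 38.0 CPM, and 37 in IMQ, 80.3 CPM, a log2 ratio of 1.08 (0.40 to 1.75). The other higher genes were C1qa and C1qc, chains of the recognition part of C1 that macrophages make. C1qa had 9 UMIs in 1 UT barcode and 17 in 5 IMQ barcodes, C1qc had 4 in 1 and 6 in 3, and the remaining chain, C1qb, had 12 in 2 and 7 in 5. Masp1, a protease of the lectin route, had 47 and 8 UMIs, a log2 ratio of -1.29 (-2.59 to -0.20). Clu, which encodes the fluid-phase regulator clusterin, had 18 and 1, a log2 ratio of -2.91 (-8.29 to -0.25). Over all deposited barcodes Masp1 was at -0.78 (-1.32 to -0.23) and no longer 2-fold lower. There C1qc, at 0.94 with 1 CPM added, was no longer 2-fold higher.

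The 7 genes in between were C2, Cfb, Colec12, Cr1l, Cd59b, C1qbp and C1qb. C2, the partner of C4 in the convertase, had 27 and 16 UMIs, a log2 ratio of 0.51 (-0.48 to 1.45). Cfb, its counterpart in the alternative route, had 19 and 8, a log2 ratio of 0.01 (-1.39 to 1.27). Cr1l, a membrane regulator of C3 and C4 as CD55 is, had 90 and 22, a log2 ratio of -0.77 (-1.52 to -0.09). Colec12 stood at 0.33 (-0.22 to 0.86), C1qbp at -0.06 (-0.66 to 0.51) and Cd59b, with 8 and 3 UMIs, at -0.15 (-2.70 to 1.90). Over all deposited barcodes the genes at least 2-fold lower were Clu, Cr1l, C1qbp and Cd59b. There Cr1l was at -1.20 (-1.64 to -0.77), C1qbp at -1.33 (-1.78 to -0.88) and Cd59b at -1.28 (-2.89 to 0.22). The receptors C3ar1 and C5ar1 had no UMI in either library in any deposited barcode, and Cfd, the protease of the alternative route, was likewise at 0.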

How the data were processed

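Dermal CD45-negative, tdTomato-positive cells were profiled in 1 UT and 1 IMQ library with the Chromium 3′ kit, version 3. The authors deposited UMI counts per gene and barcode, with no normalization, from Cell Ranger 3.0.0 (UT) and 3.1.0 (IMQ) per the file headers. The submitters' processing notes name mm10; the annotation and strand setting were not given in the sources used here. The study integrated more IMQ cells than the deposited IMQ matrix has barcodes before any filter, and more UT cells than its stated filter leaves here, so the deposited matrices may differ from those behind its results.

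Filtering followed the study (200 to 5000 genes, at most 5% mitochondrial UMIs) but without doublet removal, which was an alternative (Scrublet in scanpy 1.11.5, top 9 UT and 3 IMQ barcodes). UMIs were summed per library and scaled to CPM, with exact Poisson, Clopper-Pearson and conditional binomial intervals (scipy 1.17.1). Thinning to 400 UMIs was drawn once per library. Clusters came from Seurat 5.3.0 (R 4.3.3; 2000 variable genes, 30 anchor dimensions, 20 components, resolution 0.5), and TMM factors from edgeR 4.0.16. The interval and thinning functions were tested on simulated data. The genes named were the 6, the other listed complement genes with at least 10 UMIs, and the 3 of highest r per gene. C3ar1, C5ar1, Cfd and the near copies, all under that minimum, were named after their values were seen. The members and lists were chosen with earlier results of these data known. A papillary and a reticular fibroblast list, at 214 and 73.3 CPM in UT and 97.6 and 113 CPM in IMQ, an endothelial list (48.0 and 13.0 CPM), a mural list (111 and 17.4 CPM), a Schwann list (9.05 and 6.51 CPM) and a neutrophil list (0.905 and 0 CPM) were also measured.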

Additional observations from a re-analysis of the deposited data

How the results depend on the processing

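Each log2 ratio was recomputed under 13 alternatives, 3 of them scalings; clusters 1 to 4, clusters 1, 2 and 3, cluster 2, and all deposited barcodes up to 5000 genes were chosen after seeing the data. C3 stayed above 0 with its interval in all 13 (1.28 to 2.10), and Cd55 stayed below 0 (-1.56 to -0.47) with its interval in all but the gene minimum of 500. With TMM and median-of-ratios scaling, which take the typical gene as equal, the values were 0.77 in both for C4b, 0.40 in both for C1s1, -0.13 and -0.14 for C1ra, and 0.016 and 0.0092 for Serping1, and TMM gave 2.10 for C3. In cluster 2 alone C4b was at -0.36, C1s1 at -0.68, C1ra at -0.98 and Serping1 at -0.81; in clusters 1, 2 and 3 C1ra was at -1.10 and Serping1 at -0.70, and in clusters 1 to 4 at -0.98 and -0.62. Clusters 1, 2 and 3 leave out cluster 4, where most of the 6 genes were lowest. Serping1 was at -0.76 with at least 500 genes, -0.61 with at least 3 fibroblast markers, -0.67 over all deposited barcodes up to 5000 genes and -0.21 without mitochondrial and ribosomal genes, Gm42418 and AY036118, and Cd55 at -0.47 with at least 500 genes. Without mitochondrial and ribosomal genes, Gm42418 and AY036118, Cd55 was at -0.86 and so no longer 2-fold lower. The same held for Cd55 with TMM scaling (-0.64), median-of-ratios scaling (-0.65) and the gene minimum of 500. A minimum of 1 UMI measured 27 of the other complement genes, with 6 at least 2-fold higher, 5 lower and a median log2 ratio of -0.76. Of all 13397 genes measured in that setting, 1073 were higher and 4465 lower, and their median was close to it, at -0.72. With 10 CPM added, 1 of 12 was higher and 1 lower, against 134 and 1209 of 8129 genes. All deposited barcodes put 4 of 14 lower, against 47.9% of all genes. The log2 ratio of the highest over the lowest UT cluster went from 1.42 to 3.66 for C3 at resolution 0.8 and from 1.51 to 1.12 for Serping1 without integration, and for the other genes stayed within its interval under both. Causes of these shifts were not tested. No paired analysis was possible because each group had 1 library and the groups share 1 replicate number, and for the same reason no replicate could be left out. C3 rests on 67 and 86 UMIs and Cd55 on 146 and 28, which limits both.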
